A study of Mus musculus with 34 samples.

Results

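The retinoic acid receptors Rara, Rarb and Rarg and the retinoid X receptors Rxra, Rxrb and Rxrg were followed through a mouse model of liver fibrosis and liver tumours. The 6 genes were taken by symbol: a probe set counted when its only gene symbol was 1 of these 6, and the probe set with the highest mean signal over 34 arrays stood for each gene. All 6 were found, on 9 probe sets, among 18193 genes with such a probe set, and all 6 passed the filter on dim probe sets that left 13099 genes for testing.

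Retinoic acid receptors are nuclear receptors that bind DNA as heterodimers with a retinoid X receptor. Without retinoic acid the pair holds corepressors on its target genes, and with retinoic acid it exchanges them for coactivators. Retinoid X receptors are also the obligate partners of the PPARs, the liver X receptor, the farnesoid X receptor, the xenobiotic receptors and the thyroid hormone receptors, so in liver they sit at the centre of lipid, bile acid and drug metabolism. The liver stores most of the body's vitamin A, as retinyl esters in stellate cells, the cells that turn into collagen-producing myofibroblasts in fibrosis. Peretinoin is a synthetic acyclic retinoid that acts on these receptors.

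The mice were C57/B6 wild type or carried a Pdgf-c transgene, which encodes platelet-derived growth factor C. Diets began after weaning at week 4. At week 20 there were 5 liver samples of wild type, 5 of transgenic mice on the basal diet and 5 of transgenic mice on a diet with 0.06% peretinoin. At week 48 there were 4 of wild type, 5 of transgenic mice on the basal diet and 5 of transgenic mice on the peretinoin diet, and 5 samples of tumours of transgenic mice. No wild-type group labelled with peretinoin was among the samples analysed. The labels do not give the promoter that drives the transgene, the diet of the wild-type and tumour samples one by one, the sex of the mice, or whether mice gave both tumour and liver samples. They number the samples of a group without saying that each is a separate animal, so the p-values measure the spread between these samples.

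The values are MAS5 signals, the brightness of a probe set on a linear scale. All arrays had a common trimmed mean, which was read here from the values. The median signal of an array lay between 71.5 and 95.7, and precision is limited by how many arrays a group has. Of 8 hepatocyte markers the lowest signal on any array was 112.7, of Ass1, and the others stood at 7391.2 or higher. In 6 arrays, transcripts of skeletal muscle or of pancreatic acinar cells stood at least 3 log2 units above their median over the 34 arrays: replicate 4 of week 48 wild type, replicate 5 of week 20 and replicate 4 of week 48 transgenic liver, replicates 3 and 5 of week 20 peretinoin liver, and replicate 1 of week 48 peretinoin liver. The ratio of the 3′ to the 5′ probe set of Actb, which rises when RNA or labelling is less complete, also differed between groups. At week 20 wild-type liver spanned 1.81 to 2.16, transgenic liver 1.62 to 1.74 and peretinoin liver 1.70 to 3.31. At week 48 it was 1.39 to 1.71, 1.30 to 1.57 and 1.42 to 1.94, and 1.25 to 1.47 in tumours.

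Rarb is itself a textbook target of its own receptor family. For that reason the windows from 250 bases before to 50 bases after the transcription start were searched in RefSeq (build GRCm38.p6) for the paired half-sites that these receptors bind. A half-site was AGGTCA or a variant of it, which were AGTTCA, next the form GGTTCA, and also the form GGGTCA. They were searched as direct repeats with a gap of 1, 2 or 5 bases, on both strands, each repeat length being counted on its own. The 6 receptor genes had 13 such windows, and 1 of the 13 held a match: a window of Rarb, with a repeat spaced by 5 bases. Among all 32851 windows this repeat was found in 32, a share of 0.0974%. The half-sites of the Rarb match, GGTTCA and AGTTCA, were both among the variants searched. Since the search was run because Rarb is a known target, its match is no independent finding. The repeats spaced by 1 and by 2 bases were found in 0.222% and 0.268% of windows and in no window of the receptor genes. Of 27 genes of retinoid transport, synthesis, degradation and response, 17 had 25 windows. Cyp26a1, the enzyme that degrades retinoic acid, held the repeat spaced by 5 bases, and Bco1, which cleaves beta-carotene, held the repeat spaced by 1 base. A match is a description of the letters, and no binding was measured. The 250 bases upstream of the start are shown for both genes with the repeat spaced by 5 bases. These genes were chosen because Rarb is a receptor gene and Cyp26a1 degrades its ligand. Only the half-sites of that repeat are in capitals.

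Rarb, chr14:16575477-16575726, minus strand: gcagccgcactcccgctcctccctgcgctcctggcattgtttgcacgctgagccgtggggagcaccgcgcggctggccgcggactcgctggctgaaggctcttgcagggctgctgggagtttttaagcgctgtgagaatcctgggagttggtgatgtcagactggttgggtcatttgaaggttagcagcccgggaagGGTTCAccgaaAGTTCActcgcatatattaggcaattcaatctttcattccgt

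Cyp26a1, chr19:37697558-37697807, plus strand: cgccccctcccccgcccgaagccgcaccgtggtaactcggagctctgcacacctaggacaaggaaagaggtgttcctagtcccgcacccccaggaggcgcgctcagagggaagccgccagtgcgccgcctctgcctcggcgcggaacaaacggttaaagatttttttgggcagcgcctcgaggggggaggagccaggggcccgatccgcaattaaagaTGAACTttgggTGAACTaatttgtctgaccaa

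In Rarb the repeat lay on the sense strand, 53 to 37 bases before the start (chr14:16575513-16575529). In Cyp26a1 it lay on the opposite strand, 32 to 16 bases before the start (chr19:37697776-37697792), so its half-sites read TGAACT in the strand printed.

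The ratio of the highest to the lowest group mean was 2.50 for Rarb, 2.14 for Rxrb, 1.73 for Rxra, 1.45 for Rarg and 1.40 for Rxrg. No ratio is given for Rara, whose signal was at 8.4 to 10.3 on 3 of 5 arrays of week 20 wild type, near the mean of 9.06 of an Rxra probe set that the filter removed. Rara, Rarb and Rarg had their highest group mean in tumours, while Rxra and Rxrb had their lowest there. For every gene, the arrays of groups next to each other in the order of means overlapped.

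**Figure D1:**
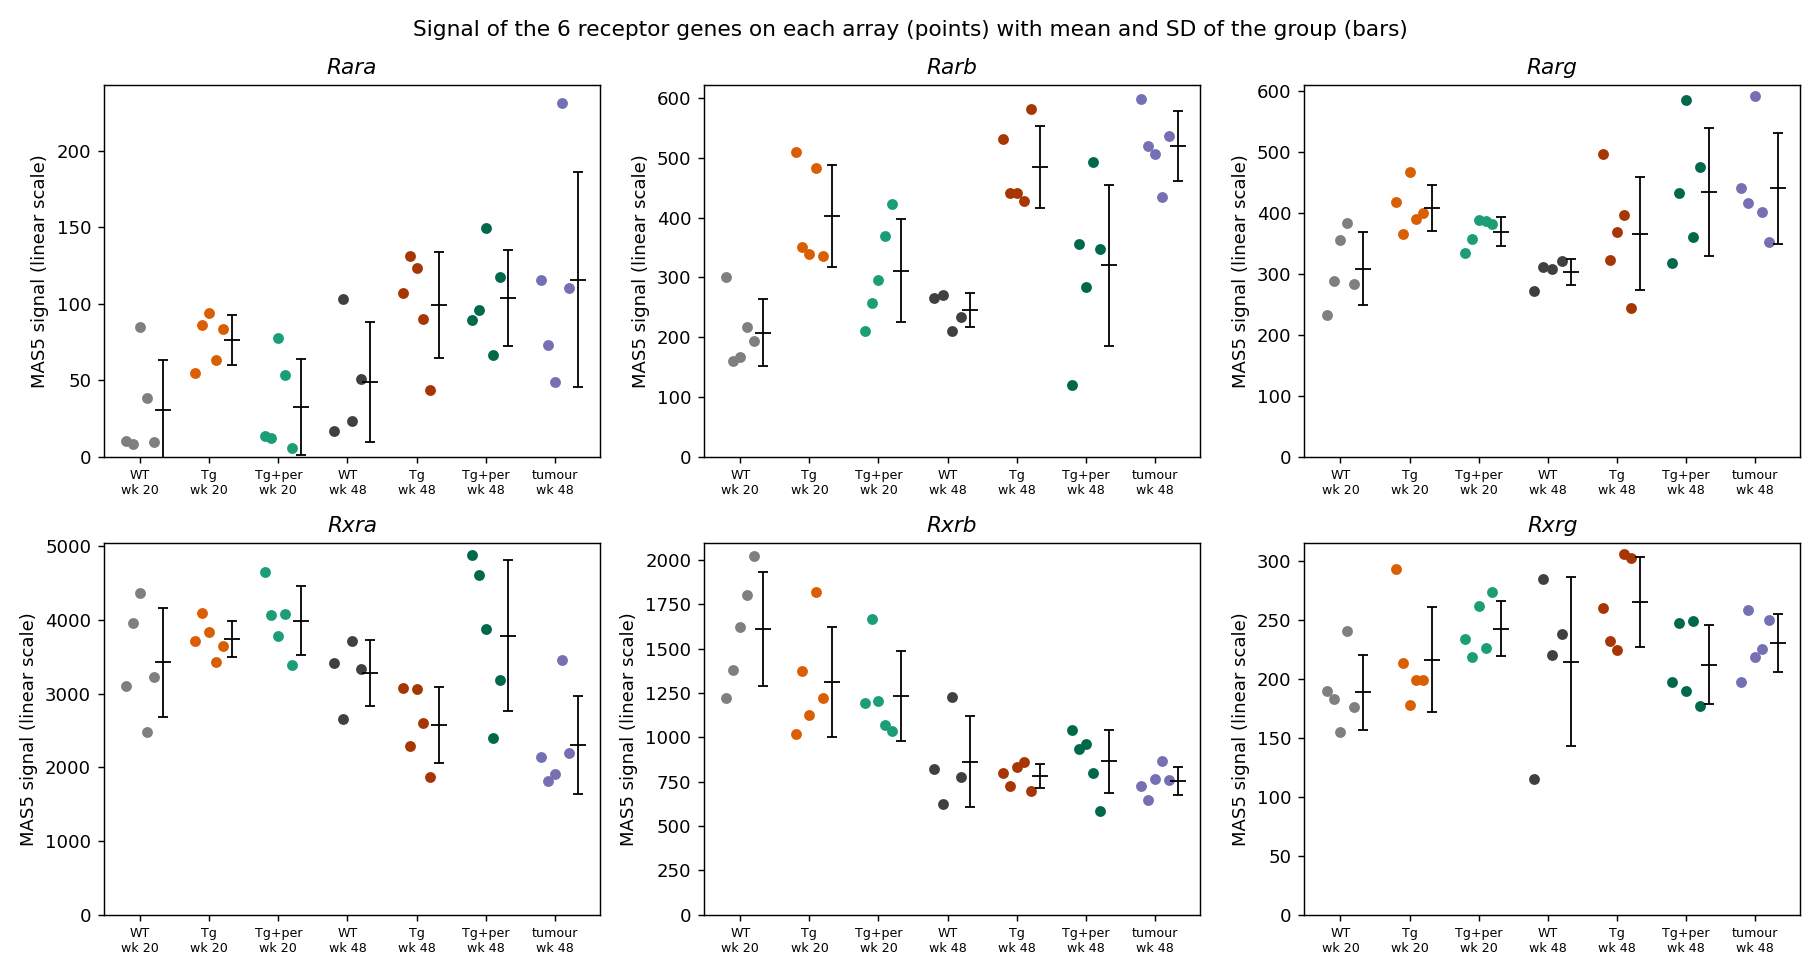
MAS5 signal on a linear scale (y axis) of the 6 receptor genes in the 7 groups (x axis); each point is 1 array, and the bar beside the points is the group mean with its SD, cut off at 0 for Rara in week 20 wild type. Rarb points of transgenic liver on the basal diet and of tumours lie above all wild-type points of the same age, while those on peretinoin overlap wild type. Rxrb points are lower at week 48 than at week 20 in most groups.

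Rarb was higher in transgenic liver at both ages. At week 20 its signal in wild type was 300.1, 159.9, 166.1, 217.3 and 194.1. In transgenic liver on the basal diet it was 509.1, 349.9, 338.4, 482.7 and 335.5. Every transgenic array was above every wild-type array. The means were 208 ± 56.6 (SD, n = 5) and 403 ± 85.4 (n = 5), and Rarb rose by 0.92 ± 0.23 on the log2 scale of signal + 16 (moderated standard error, 95% interval 0.46 to 1.38, limma adjusted p = 0.00319), a fold of 1.89.

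At week 48 the wild-type signals of Rarb were 265.9, 270.3, 210.2 and 232.9. The transgenic signals were 531.7, 441.1, 440.8, 427 and 581.9. The groups again did not overlap, with means of 245 ± 28.5 (n = 4) and 484.5 ± 68.6 (n = 5), and Rarb rose by 0.94 ± 0.24 (95% interval 0.45 to 1.42, limma adjusted p = 0.00474). The effect at week 48 minus that at week 20 was 0.02 ± 0.33 (95% interval -0.65 to 0.69, limma adjusted p = 0.991). Both calls held under every alternative setting and every left-out array that was run.

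The calls of the receptor genes have to be read against how many genes the transgene moved. At week 20, 2 of the 6 receptor genes were called, Rarb and the dim Rara, against 23.7% of all tested genes, and 1 of 6 did not overlap between groups, against 16.1%. Rara passed the filter only through the groups where it was high, so its call gives the count no support. At week 48, 1 of 6 was called, against 20.8%, and 1 of 6 did not overlap, against 21.4%. With 6 genes, these counts show nothing particular to the family.

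With the transgene, markers of stellate cells and myofibroblasts rose beside Rarb. Of 13 markers, 9 rose at week 20, with a median log2 change of 2.38, and 10 rose at week 48, with a median of 1.67. The summed signal of the list at week 20 lay between 6008 and 15810 for wild type and between 34819 and 40926 for transgenic liver, and at week 48 between 9828 and 13821 and between 24636 and 32206. The lowest signal of any of the 13 on any array was 15.8, of Col1a1. Hepatocyte markers moved the other way, with 4 of 8 lower at week 20 and 5 of 8 at week 48. Of 5 Kupffer cell markers, 3 fell at week 20 and 1 at week 48. With age in transgenic liver 15.7% of all tested genes were called. Of the 13 stellate cell markers 3 fell and 0 rose, with a median of -0.29. Of 5 Kupffer cell markers 2 rose, with a median of 0.77, and of 4 bile duct cell markers 1 rose, with a median of 0.47. No hepatocyte or sinusoidal endothelium marker was called. Rarb with age in transgenic liver gave 0.27 ± 0.23 and was not called. After taking out group means, the r of Rarb over 34 arrays was 0.34 with the mean of the stellate cell markers. It was 0.46 with sinusoidal endothelium markers, 0.35 with Kupffer cell markers and -0.55 with the log2 Actb ratio, a description without a test. In RNA of whole liver, more cells of a type and more RNA per cell cannot be told apart, and the part of these cells in the Rarb result was not tested.

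**Figure D2:**
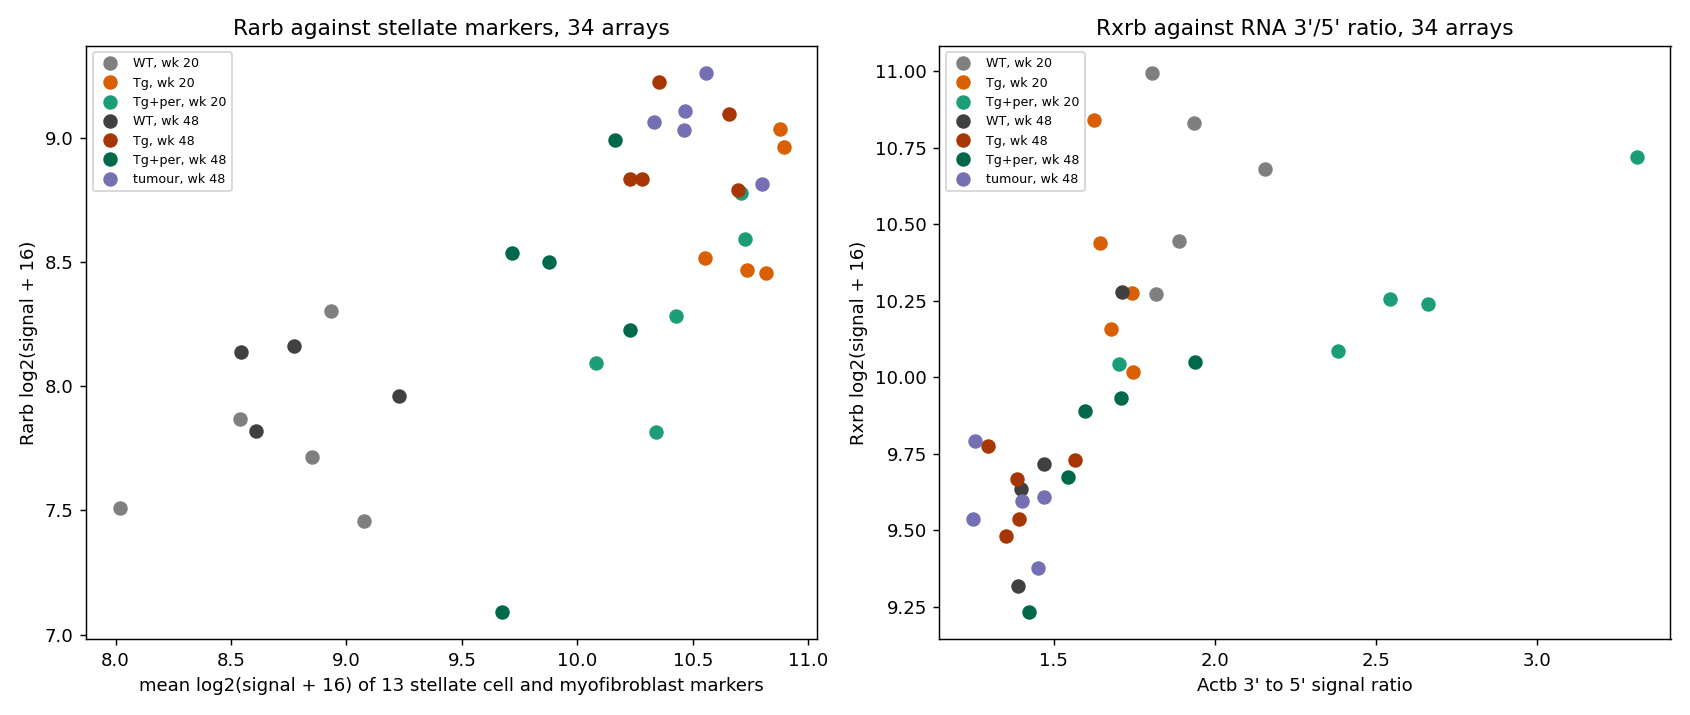
Left, Rarb against the mean log2(signal + 16) of 13 stellate cell and myofibroblast markers; right, Rxrb against the Actb 3′ to 5′ signal ratio; both y axes are log2(signal + 16), and each point is 1 of 34 arrays coloured by group. On the left the wild-type arrays sit apart at low marker level and low Rarb, and on the right most week 48 arrays sit at low ratio and low Rxrb.

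Rara, the receptor that is made in most tissues, was dim: its signal was below the median of its own array on 18 of 34 arrays. It passed the filter at 52.5 through the groups where it was high, with a mean of 73.0 over all arrays but of 30.3 and 48.5 in wild type at week 20 and week 48 and of 32.5 on peretinoin at week 20. Its log2 changes against those groups therefore depend on the offset and are no measure of fold: that at week 20 ran from 0.63 with an offset of 64 to 1.87 with an offset of 1. At week 20 the wild-type signals were 10.3, 8.4, 84.5, 38.6 and 9.8, and the transgenic signals were 54.9, 86.3, 93.9, 63.2 and 83.2. The wild-type array at 84.5 lay within the transgenic range. Rara rose by 1.22 ± 0.42 (95% interval 0.37 to 2.08, limma adjusted p = 0.0320), from a mean of 30.3 ± 32.8 to 76.3 ± 16.5 (SD, n = 5 and 5). The call ended when wild-type replicate 1, 2 or 5 or transgenic replicate 2, 3 or 5 was left out, with changes between 1.05 and 1.19. It also ended with an offset of 64, with quantile normalisation, with median centring and without the 6 arrays with muscle or acinar transcripts.

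At week 48 the wild-type signals of Rara were 16.5, 103, 23.4 and 51, and the transgenic signals were 107.3, 131.6, 123.4, 90.1 and 43.7. The groups overlapped, and the log2 change of 0.96 ± 0.45 was not called (limma adjusted p = 0.127). Without wild-type replicate 2 it was 1.32 and passed (limma adjusted p = 0.0472).

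Rarg, best known as the receptor of skin and other epithelia, had its signals overlapping between groups in every comparison. At week 20 they were 233, 288.3, 355.5, 383.1 and 282.9 in wild type and 418.1, 366.5, 467, 390 and 400.9 in transgenic liver. A single wild-type array, replicate 4, overlapped the transgenic range. The log2 change of 0.40 ± 0.16 (95% interval 0.08 to 0.72) was not called (limma adjusted p = 0.0612), and it was 0.48 and passed without that array (limma adjusted p = 0.0365). In week 48 liver the wild-type arrays ranged from 272.2 to 320.7 and the transgenic arrays from 244.6 to 497.8, with a log2 change of 0.23 ± 0.17 (limma adjusted p = 0.361). A second probe set of Rarg gave 0.42 ± 0.20 at week 20 and 0.03 ± 0.21 at week 48, neither called.

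No retinoid X receptor gene was called with the transgene at either age. At week 20 the log2 changes were 0.15 ± 0.18 for Rxra (95% interval -0.20 to 0.51), -0.30 ± 0.17 for Rxrb (-0.65 to 0.05) and 0.18 ± 0.16 for Rxrg (-0.16 to 0.51). At week 48 they were -0.36 ± 0.19 for Rxra (-0.74 to 0.02), -0.10 ± 0.18 for Rxrb (-0.47 to 0.27) and 0.34 ± 0.17 for Rxrg (-0.02 to 0.69). Median centring moved the median change of all genes at week 20 from 0.06 to -0.16, and with it the Rxrb change at that age was -0.52 and passed (limma adjusted p = 0.0303). A p that misses the threshold does not show that a gene did not change.

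**Figure D3:**
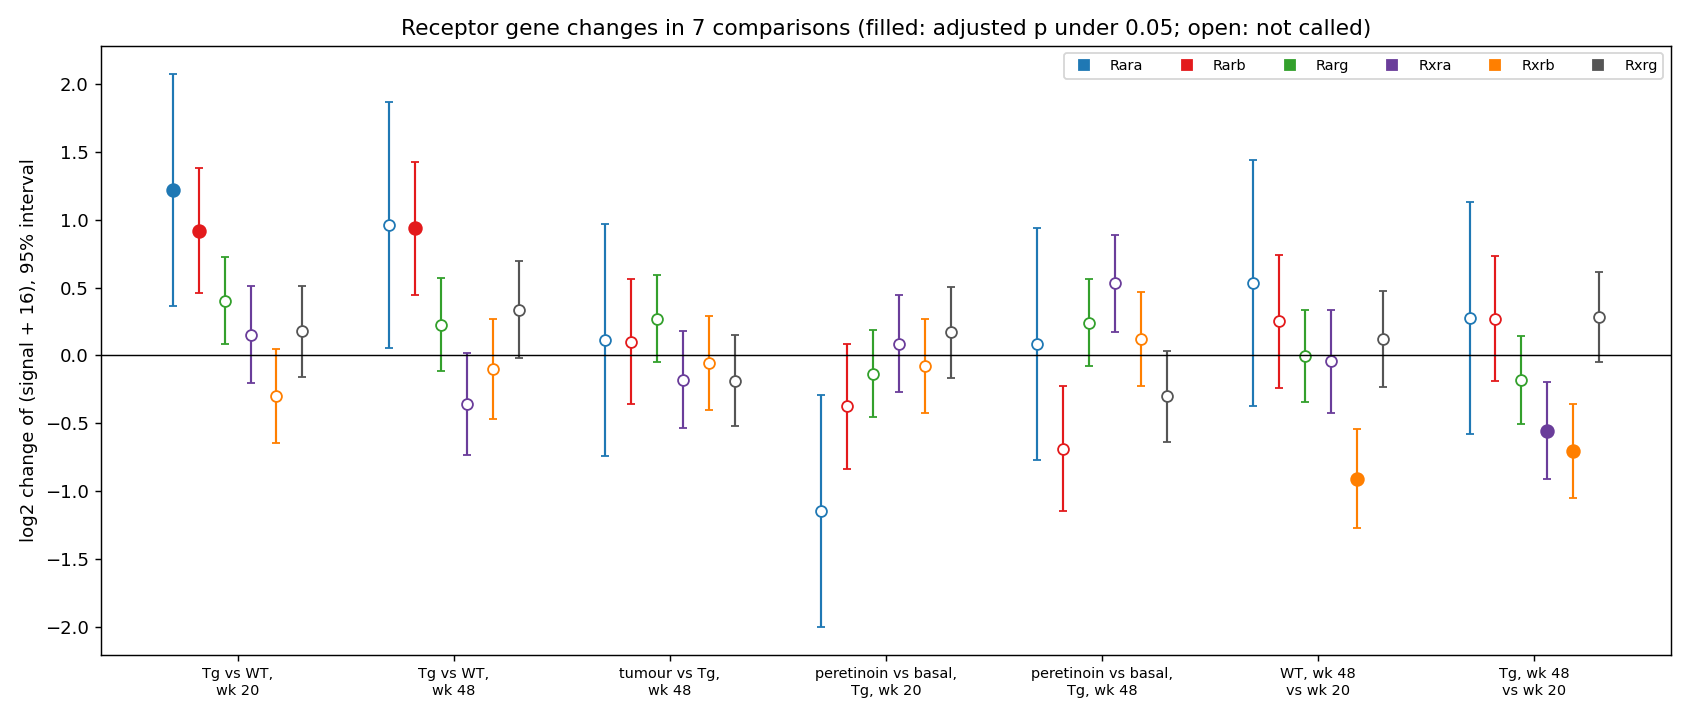
Log2 change of signal + 16 (y axis) of the 6 receptor genes in 7 comparisons (x axis), with 95% intervals; filled symbols had a limma adjusted p under 0.05. The filled symbols are Rara and Rarb with the transgene at week 20, Rarb at week 48, Rxrb with age in both genotypes, and Rxra with age in transgenic liver. Rara passed the filter only through the groups where it was high.

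Calls among the retinoid X receptors were made between ages. Rxrb, a broadly expressed member of the family, had wild-type signals of 1220.8, 1379.2, 1624.9, 1804.6 and 2023.7 at week 20 and of 824.7, 622, 1227 and 778.8 at week 48. Only the week 48 array at 1227 reached the lower edge of the week 20 range. Rxrb fell by 0.91 ± 0.18 on the log2 scale (95% interval -1.28 to -0.54, limma adjusted p = 0.00272).

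In transgenic liver on the basal diet the Rxrb signals were 1019.5, 1373.3, 1126.9, 1818 and 1223 at week 20. At week 48 they were 797.5, 726.6, 833, 860.2 and 698.7, all below the week 20 arrays. Rxrb fell by 0.71 ± 0.17 (95% interval -1.05 to -0.36, limma adjusted p = 0.00476). The fall in transgenic liver kept its call under every setting and left-out array that was run. The Actb 3′ to 5′ ratio was also lower at week 48 in both genotypes. With that ratio as a covariate the wild-type change was -0.63 ± 0.19 and missed the threshold (limma adjusted p = 0.0558), while the transgenic change was -0.50 and kept its call (limma adjusted p = 0.0473).

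Rxra, the main retinoid X receptor of hepatocytes, fell with age in transgenic liver. Its signals were 3711.4, 4096.7, 3835.4, 3431.2 and 3646.2 at week 20 and 3080.7, 2288, 3061.5, 2600.5 and 1872.9 at week 48. All 5 arrays of week 48 were below all 5 of week 20, and Rxra fell by 0.56 ± 0.18 (95% interval -0.91 to -0.20, limma adjusted p = 0.0279). The call ended without week 20 replicate 2 or 3 or week 48 replicate 2 or 5, with changes between -0.55 and -0.45. With the Actb ratio as a covariate it was -0.42 ± 0.19 and was not called (limma adjusted p = 0.142).

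In wild-type liver the Rxra signals were 3107.5, 3954.2, 4360.4, 2475.9 and 3221.5 at week 20 and 3412.5, 2659.2, 3720.2 and 3333.9 at week 48, with a log2 change of -0.04 ± 0.19 (limma adjusted p = 0.929). The difference between the genotypes in this change, which equals the transgene effect at week 48 minus that at week 20, was -0.51 ± 0.26 and did not pass (95% interval -1.03 to 0.01, limma adjusted p = 0.388). The fall of Rxra is therefore not shown to differ between genotypes.

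With age, 1 of 6 receptor genes was called in wild-type liver, against 6.88% of all tested genes, and none of the 6 was free of overlap, against 8.84%. In transgenic liver 2 of 6 were called, against 15.7%, and the same 2 did not overlap, against 14.3%. For the change in transgene effect from week 20 to week 48, 0 of 6 were called, against 0.275% of all genes, and the adjusted p of the receptor genes was 0.388 or higher.

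Rxrg, best known from muscle and brain, was not called in any comparison. Week 20 signals lay between 154.5 and 240.4 for wild type and between 177.7 and 292.5 for transgenic liver, and week 48 signals between 115.2 and 284 and between 224.5 and 305.2.

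With the peretinoin diet none of the 6 receptor genes was called by limma at either age, where 378 genes were called at week 20 and 95 at week 48. Those counts of all genes were 0 and 27 with the Actb ratio as a covariate, and 51 to 879 and 26 to 180 over left-out arrays. At week 20 2.89% of all tested genes were called and 5.02% did not overlap. The shares at week 48 were 0.725% and 2.69%. None of the 6 receptor genes was free of overlap at either age. The basal diet arrays are the same ones that enter the transgene comparisons, so the values of both contrasts share those arrays.

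At week 20 the Rara signals on peretinoin were 13.6, 11.9, 77.9, 53.1 and 5.9, against 54.9 to 93.9 on the basal diet. Of these, 1 array lay within the basal range, and the log2 change was -1.15 ± 0.42 (limma adjusted p = 0.118). At week 48 the peretinoin arrays were 89.1, 95.9, 149.5, 66.6 and 117.4, and the change was 0.08 ± 0.42 (limma adjusted p = 0.957). The effect at week 48 minus that at week 20 was 1.23 ± 0.59 and was not called (limma adjusted p = 0.358).

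Rarb on peretinoin gave 209.5, 257, 295.4, 369.8 and 422.9 at week 20, with a log2 change of -0.38 ± 0.23 (95% interval -0.84 to 0.08, limma adjusted p = 0.370). At week 48 it gave 120.2, 355.4, 283.7, 493.4 and 346.5, against 427 to 581.9 on the basal diet. Of these, 4 arrays lay below every basal array and replicate 4 lay among them. The change at week 48 was -0.69 ± 0.23 (95% interval -1.15 to -0.23, limma adjusted p = 0.151). Beside this, 1 of 13 stellate cell markers fell at each age, and their summed signal on peretinoin was 27108 to 37211 at week 20 and 15436 to 27615 at week 48. Their part in the Rarb values was not tested. Leaving out single arrays changed its size and its call: it was -0.87 and passed without replicate 4 (limma adjusted p = 0.0426), and -0.39 without replicate 1 (limma adjusted p = 0.385), which is an array with transcripts of another tissue.

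Rxra on peretinoin at week 48, on its brightest probe set, ran the other way on the same arrays. It gave 4880.8, 4614.4, 3873.1, 2394.2 and 3184.8, so that the array with the lowest Rarb, replicate 1, had the highest Rxra and the array with the highest Rarb, replicate 4, had the lowest Rxra. The log2 change was 0.53 ± 0.18 (95% interval 0.17 to 0.89, limma adjusted p = 0.153), and it was 0.68 and passed without replicate 4 (limma adjusted p = 0.0358). Without the arrays with muscle or acinar transcripts, replicate 1 among them, it was 0.44 (limma adjusted p = 0.419). With the Actb ratio as a covariate it was 0.41 (limma adjusted p = 0.444). At week 20 the signals were 4651.1, 4063, 3780.7, 4082.6 and 3390, with a change of 0.09 ± 0.18 (limma adjusted p = 0.839).

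The other probe set of Rxra did not give the same picture with the diet. It had a mean signal of 859 over all arrays, against 3303 for the brightest, and over the 34 arrays their log2 signals correlated at r = 0.23, a description without a test. At week 48 its change with peretinoin was -0.11 ± 0.16 (limma adjusted p = 0.897). Peretinoin replicate 1, the highest of its group on the brightest probe set, was the lowest of that group here, at 510.6. At week 20 it was -0.49 ± 0.16 (limma adjusted p = 0.119), with all 5 peretinoin arrays, 718.2 to 863.1, below all 5 basal arrays, 995.7 to 1210.8. The age change in transgenic liver had the same direction on both, -0.46 ± 0.16 on this probe set (limma adjusted p = 0.0698). The dimmest Rxra probe set had a mean signal of 9.06 and was under the filter.

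**Figure D4:**
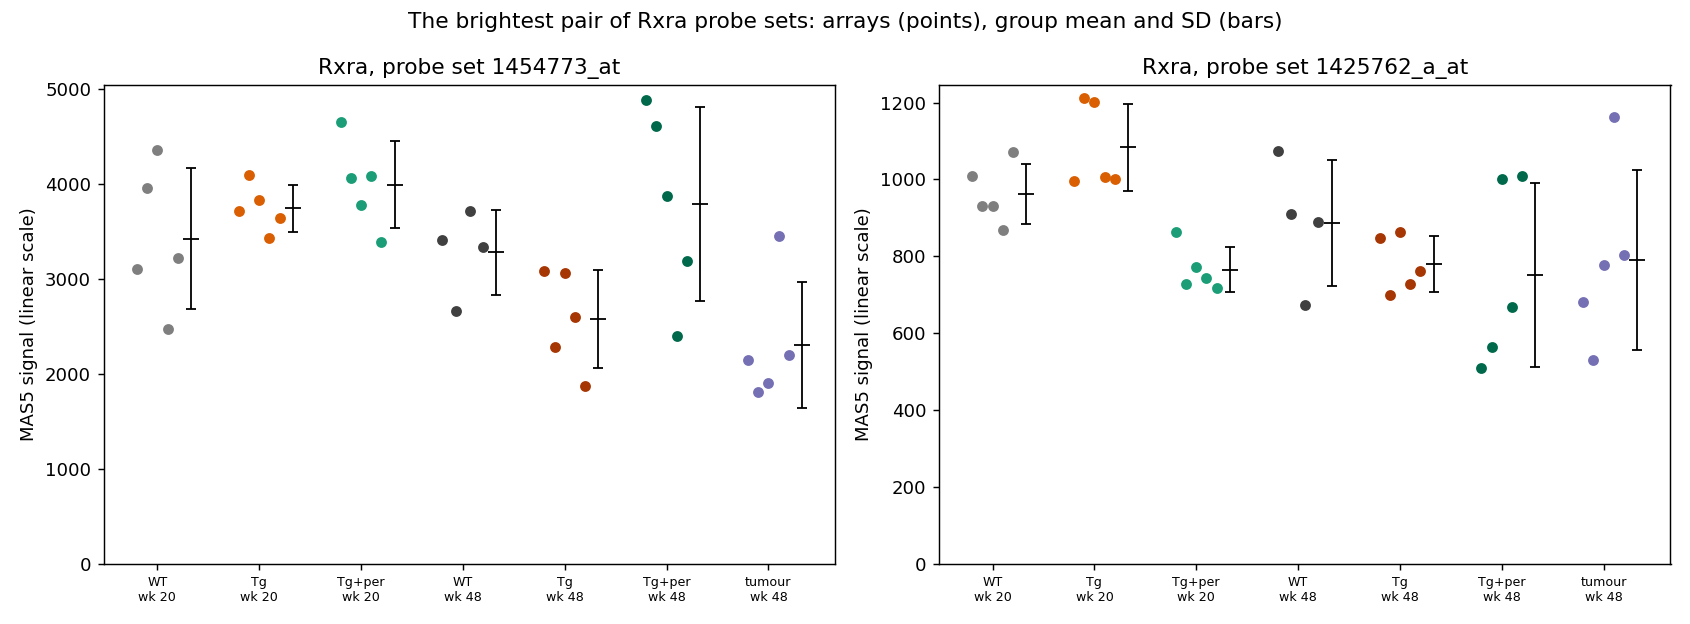
Signal on a linear scale (y axis) of the 2 brighter Rxra probe sets in the 7 groups (x axis); each point is 1 array, and bars are the group mean with its SD. Both are lower in week 48 than in week 20 transgenic liver, and they part in the peretinoin groups, where the dimmer one, on the right, is below the basal arrays at week 20 and the brighter one, on the left, is not.

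None of the other receptor genes was called with peretinoin. At week 20 the log2 changes were -0.14 ± 0.16 for Rarg, -0.08 ± 0.17 for Rxrb and 0.17 ± 0.16 for Rxrg. At week 48 they were 0.24 ± 0.16 for Rarg, 0.12 ± 0.17 for Rxrb and -0.30 ± 0.16 for Rxrg. For the difference of the peretinoin effect between ages 0.679% of all genes were called and 0 of the 6, among which Rxrg gave -0.47 ± 0.23 (limma adjusted p = 0.368). Beside these values, the Actb ratio was higher on peretinoin than on the basal diet at week 20 in its median, 2.54 against 1.68, and with that ratio as a covariate the Rarb change at week 20 was 0.28 in place of -0.38. In the same fit Rxrb at week 20 was -0.49 in place of -0.08, Rxra at week 20 was -0.19 in place of 0.09, and Rarb at week 48 was -0.42 in place of -0.69. None of these was called.

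Between tumours and transgenic liver of the same age none of the 6 receptor genes was called by limma, and 0% of all genes were called, while 1075 genes had an unadjusted p under 0.05. None of the 6 was free of overlap, against 1.98% of all genes. The fit did not pair tumours with livers, and the labels do not say whether they came from the same mice. Rarb gave 598, 520, 507, 434.4 and 536.8 in tumours, with a log2 change of 0.10 ± 0.23 (95% interval -0.36 to 0.56). Rxra gave 2142.2, 1812.8, 1904, 3453.9 and 2199.9, with a change of -0.18 ± 0.18 (-0.54 to 0.18). Over left-out arrays this change ran from -0.33, without tumour replicate 4, to -0.10, without tumour replicate 2, and it was -0.29 without transgenic replicate 5. The changes were 0.11 ± 0.42 for Rara (-0.74 to 0.97), 0.27 ± 0.16 for Rarg (-0.05 to 0.59), -0.06 ± 0.17 for Rxrb (-0.40 to 0.29) and -0.19 ± 0.16 for Rxrg (-0.52 to 0.15). Against wild-type liver, all 5 tumours had more Rarb signal than any of the 9 wild-type arrays of both ages, the lowest tumour being at 434.4 and the highest wild-type array at 300.1. The same held for transgenic liver on the basal diet, with lowest arrays of 335.5 at week 20 and 427 at week 48, so it is not particular to tumours. Tumours and wild type were not compared in the fit, and the share of all genes that part in this way was not counted.

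Around the receptors, 59 genes in 6 lists covered their partners, cofactors and ligand supply, and 47 of them were tested. With the transgene 10 of 47 were called at week 20 (21.3%) and 11 of 47 at week 48 (23.4%), close to the shares over all genes of 23.7% and 20.8%. Aldh1a2 at week 20 and Aldh1a3 at week 48 are among these calls. Both passed the filter through the groups where they were high, so their calls give the counts no support. Tumours gave 0 of 47. Peretinoin gave 3 of 47 at week 20 (6.38%, against 2.89% of all genes) and 0 of 47 at week 48 (against 0.725%). These 3 calls, of Fabp5, Tgm2 and Nr1i2, all ended with the Actb ratio as a covariate, where 0 of all genes were called at week 20. With age, 3 of 47 were called in wild-type liver (6.38%, against 6.88%) and 12 of 47 in transgenic liver (25.5%, against 15.7%). Aldh1a3 was 1 of the 3 in wild-type liver and gives that count no support either. The median log2 change of the 47 was 0.05 at week 20 and -0.01 at week 48 with the transgene, where the median of all genes was 0.06 and 0.04. Over the 9 comparisons there were 40 calls, of which 14 held under every setting and left-out array that was run.

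In ligand supply, Aldh1a1, the abundant liver enzyme that makes retinoic acid from retinal, fell at both ages. At week 20 the wild-type arrays spanned 21055 to 33909.3 and the transgenic arrays 14007.8 to 17834.4, a log2 change of -0.67 ± 0.11 (limma adjusted p = 4.18e-05). By week 48 these spans were 27220 to 34737.8 and 16739.9 to 20832.6, and the change was -0.71 ± 0.12 (limma adjusted p = 5.24e-05). At both ages no arrays overlapped. Both minor forms of the enzyme were dim in wild type and passed the filter through the groups where they were high. Aldh1a2 rose by 1.56 ± 0.45 at week 20 (limma adjusted p = 0.0105), and Aldh1a3 rose by 2.45 ± 0.44 at week 48 (limma adjusted p = 0.000121). Aldh1a2 had a mean of 20.7 ± 22.7 in week 20 wild type, and its change ran from 0.79 to 2.68 with the offset. Aldh1a3 had a mean of 4.35 ± 1.92 in week 48 wild type, and its change ran from 1.24 to 4.22. In all, 1 of 8 tested synthesis genes rose and 2 fell at each age, where 23.7% and 20.8% of all tested genes were called. The rises were those of the dim Aldh1a2 and Aldh1a3, whose calls give these counts no support. The second fall was Adh1 (-0.34 ± 0.10) at week 20 and Rdh10 (-0.28 ± 0.09) at week 48. Neither of the latter kept its call in every setting.

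In retinol storage, Lrat, which esterifies retinol and marks stellate cells, rose by 1.33 ± 0.28 at week 48 (limma adjusted p = 0.000878). The wild-type arrays spanned 302.3 to 588.6 and the transgenic arrays 923.5 to 1398.2. Of the 8 genes of that list 4 were tested, and all 4 were called at week 48, 2 higher and 2 lower, against 20.8% of all tested genes. Fabp5, a carrier of fatty acids and retinoic acid, rose by 1.54 ± 0.40, and the plasma carriers Rbp4 and Ttr fell by 0.34 ± 0.10 and 0.33 ± 0.11. These last 3 calls each ended without at least 1 array, wild-type replicate 2 in each case. Ttr is also among the hepatocyte markers, of which 5 of 8 fell at that age. At week 20, 1 of the 4 fell, Rbp4 at -0.28 ± 0.10, and under quantile normalisation its change had the other sign, 0.04. With peretinoin Fabp5 rose by 1.45 ± 0.38 at week 20 (limma adjusted p = 0.0332). That call ended without any 1 of 7 arrays and with the Actb ratio as a covariate. Lrat at week 48 gave -0.83 ± 0.27 with peretinoin and was not called (limma adjusted p = 0.138), but it was called with the mean of its probe sets. Stra6, Crabp1 and Crabp2 were under the filter.

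Of the 8 tested degradation and target genes, the enzyme Cyp26a1 was not called in any comparison. Its signal averaged 2280 ± 1082 in wild type, 2682 ± 947 in transgenic and 2454 ± 733 in peretinoin liver at week 20. The week 48 means were 3670 ± 891, 3684 ± 776 and 2487 ± 1064, and tumours gave 2102 ± 1032, a log2 change against transgenic liver of -0.90 ± 0.31 (limma adjusted p = 0.383). With the transgene, where Rarb was called at both ages, the change of Cyp26a1 was 0.31 ± 0.31 at week 20 and 0.01 ± 0.33 at week 48. Tgm2, transglutaminase 2, rose by 0.84 ± 0.20 at week 48 with the transgene (limma adjusted p = 0.00233). Rarres1, named for its response to retinoids, fell by 1.52 ± 0.38 (limma adjusted p = 0.00394). At week 20 Rarres1 fell by 1.06 ± 0.36, a call that ended in 6 of the 10 fits without 1 array. With peretinoin Tgm2 rose at week 20 by 0.75 ± 0.19 (limma adjusted p = 0.0260). This call was also lost in 6 of 10 such fits, with the mean of its probe sets and with the Actb ratio as a covariate. The Tgm2 probe set is of a type that can also bind other transcripts.

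Among the partners of the retinoid X receptors, 11 of 13 were tested. Thra, thyroid hormone receptor alpha, rose by 0.63 ± 0.14 at week 20 (limma adjusted p = 0.00133), and Ppard rose by 0.93 ± 0.28 (limma adjusted p = 0.0127), a call that ended without wild-type replicate 5 or transgenic replicate 1. At week 48 Nr1h3, the liver X receptor alpha, fell by 0.40 ± 0.12 (limma adjusted p = 0.0130). The immediate early gene Nr4a1 rose by 1.36 ± 0.49 (limma adjusted p = 0.0440), a call lost in 7 of 9 fits without 1 array. With peretinoin 1 of 11 was called, Nr1i2, the pregnane X receptor, which fell by 0.60 ± 0.16 at week 20 (limma adjusted p = 0.0380). Its call was lost in 7 of 10 such fits and with the Actb ratio as a covariate.

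Ppara, the fatty acid receptor that pairs with Rxra in hepatocytes, fell with age in transgenic liver. Its mean was 6045 ± 748 at week 20 and 2851 ± 663 at week 48, a log2 change of -1.10 ± 0.24 (limma adjusted p = 0.00191). In wild type the means were 6316 ± 2091 and 4039 ± 1282, a change of -0.64 ± 0.25 that was not called (limma adjusted p = 0.121), and the difference between the genotypes of -0.46 ± 0.34 was not called either (limma adjusted p = 0.604). Nr1h4, the farnesoid X receptor, in transgenic liver averaged 2801 ± 276 and 2102 ± 361 and was not called. With age in transgenic liver Pparg and Nr4a2 had log2 rises of 0.86 and 1.07, calls that single arrays ended. Rdh11 rose by 1.80 ± 0.32 (limma adjusted p = 0.000433), Tgm2 by 0.88 ± 0.19, and Bco1 fell by 0.71 ± 0.15.

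Of 9 coactivators, Carm1 and Crebbp rose at week 20, by 0.43 ± 0.11 and 0.51 ± 0.19, and none was called at week 48. Of 8 tested corepressors, Nrip1 rose at week 20 by 0.50 ± 0.18 and none was called at week 48. Median centring ended all 3 of these calls, and those of Crebbp and Nrip1 also ended without single arrays. Of all tested genes 23.7% were called at week 20 and 20.8% at week 48, so these counts show nothing particular to the cofactors. With age in transgenic liver 3 coactivators fell, Carm1 by 0.43 ± 0.11, Med1 by 0.60 ± 0.20 and Kat2b by 0.37 ± 0.13, and 1 corepressor fell, Nrip1 by 0.56 ± 0.18. Of these 4 calls only that of Carm1 held in every setting run. The share of all tested genes called with age in transgenic liver was 15.7%.

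Where a list had no call, the member of smallest p was as follows. With the transgene at week 48 it was the methyltransferase Prmt1 among coactivators, at 0.43 ± 0.17 (limma adjusted p = 0.0726), and Lcor among corepressors, at -0.39 ± 0.18 (limma adjusted p = 0.119). With peretinoin at week 20 it was Ncoa2 at 0.24 ± 0.14, Tbl1x at 0.31 ± 0.11 and, for synthesis, the retinol dehydrogenase Rdh10 at -0.28 ± 0.09, with adjusted p of 0.360, 0.117 and 0.0728. With peretinoin at week 48 it was Thra at -0.39 ± 0.14, Prmt1 at -0.59 ± 0.16, Tbl1xr1 at 0.27 ± 0.13, Rdh10 at 0.31 ± 0.09 and Lrat, with adjusted p from 0.0749 for Prmt1 to 0.349 for Tbl1xr1. The peretinoin effect on Rdh10 at week 48 minus that at week 20 was 0.59 and was called (limma adjusted p = 0.0286). That call was lost in 6 of 20 fits without 1 array and in 4 settings, the Actb ratio as a covariate among them. In tumours it was Nr1i3 at -0.70 ± 0.31, Carm1 at 0.24 ± 0.11, Lcor at -0.34 ± 0.17, Ttr at 0.07 ± 0.10, Bco1 at 0.41 ± 0.15 and Cyp26a1, with adjusted p between 0.383 and 0.944.

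The genes with patterns most like those of the receptors were found by the Pearson correlation of log2 signal over the 34 arrays, which share their groups and scaling. For Rarb they were Glipr1 (r = 0.91), Marcks (0.90) and Lyz1 (0.90), and within groups, after taking out group means, r was still 0.74, 0.72 and 0.82. For Rxra they were Mia3 (0.89), Wbp1l (0.87) and Smoc1 (0.85), with 0.78, 0.83 and 0.82 within groups. For Rxrb they were Trmt1, Tle1 and Zfp771, at 0.81 each, and within groups this dropped to 0.32, 0.28 and 0.39. For Rara they were Ssbp4 (0.75), Sting1 (0.70) and Itpr3 (0.70), for Rarg they were Meis3 (0.69), Tgfb1 (0.68) and Hs6st2 (0.67), and for Rxrg they were Ppard (0.67), Hdac9 (0.65) and Rflnb (0.65).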

How the data were processed

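Gene expression was measured on 34 Affymetrix mouse arrays. The authors deposited MAS5 signal intensity values on a linear scale, per the labels and the submitters' processing notes, and the trimmed mean of every array was 500, so the values were used without new normalisation. The version of MAS5 is not given in the sources used here. Of 45101 probe sets, 64 controls were left out, and of the rest 34945 have 1 gene symbol, 932 have several and 9160 have none in the platform annotation. The upper 60% of probe sets by mean signal over all arrays (52.5 or higher) were kept, and each gene was read from its brightest probe set. The model, on log2(signal + 16), held all 7 groups with a trended variance (limma 3.58.1, R 4.3.3). It gave 9 comparisons, with Benjamini-Hochberg adjustment over 13099 genes and calls at an adjusted p under 0.05. Fold changes are of signal + 16 and understate those of dim genes. The pipeline was tested on simulated data. Promoter windows were taken from RefSeq, and the build behind the arrays plays no part in them.

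The receptor genes, the gene lists and the markers were chosen with earlier results of these data known. Named genes are the 6 receptor genes, up to 3 called genes of each list in each of 5 main comparisons or the gene of smallest p, the 3 genes of highest correlation with each receptor gene, and Cyp26a1, Lrat, Crabp1, Ppara and Nr1h4. Other list genes named for age or for the change of an effect with age were chosen after their values were seen. The alternatives were offsets of 1 and 64, no filter, the upper 40% of probe sets, quantile normalisation, median centring, the mean of a gene's probe sets, only the groups compared, the replicate number as a block, no arrays with muscle or acinar transcripts, and each array left out. The Actb ratio as a covariate and the second probe sets were added after the data were seen. Some list genes are not reported here.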

Additional observations from a re-analysis of the deposited data

Results flagged for a closer look

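Of 42 sets of arrays (6 receptor genes in 7 groups), 2 held an array far from the others, about as many as the 1 in 20 that chance gives. Rxra in tumours had its highest signal, 3453.9, in replicate 4, and the next tumour was at 2199.9. The same tumour was also the highest on the second Rxra probe set, at 1162.3, and without it the Rxra change in tumours was -0.33 in place of -0.18, not called in either case. Rxrb in week 20 peretinoin liver had its highest signal, 1669, in replicate 2, and the next array was at 1205.7.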

How the results depend on the processing

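The calls of Rarb with the transgene at both ages and of Rxrb with age in transgenic liver held in all settings and left-out arrays that were run. Rara at week 20 was not called with an offset of 64 (0.63), quantile normalisation (0.95), median centring (0.997) or without the arrays with muscle or acinar transcripts (1.19), and ranged from 1.05 to 1.56 over left-out arrays. Rxra with age in transgenic liver was not called with median centring (-0.51), without those arrays (-0.57), with the Actb covariate (-0.42) or on its second probe set (-0.46), and ranged from -0.63 to -0.45. Rxrb with age in wild type was -0.63 and not called with the Actb covariate. Rxrb at week 20 was called with median centring (-0.52). Leaving out 1 array brought calls of Rara at week 48 (0.69 to 1.32), Rarg at week 20 (0.31 to 0.48), Rarb with peretinoin at week 48 (-0.87 to -0.39) and Rxra in the same comparison (0.42 to 0.68). Rbp4 at week 20 reversed to 0.036 with quantile normalisation. Of the list gene results not called in the main fit, 5 passed in another setting or without 1 array. They were Lcor and Prmt1 with the transgene at week 48, and Lrat, Prmt1 and Rdh10 with peretinoin at week 48. Except where stated in the report, the cause of these changes was not tested.

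The number of all genes called moved by over 1.5 times in these settings. Peretinoin at week 20 went from 378 to 229 with only the groups compared, 658 without the muscle or acinar arrays and 0 with the Actb covariate, and at week 48 from 95 to 4, 40 and 27 in these, and 62 with no filter. Age in wild type went from 901 to 302, 557 and 537, and tumours from 0 to 4 without those arrays. The change of the transgene effect with age went from 36 to 20 with no filter, 23 with median centring, 57 with the mean of probe sets and 15 without those arrays. That of the peretinoin effect went from 89 to 48, 53, 54 and 135 in the same settings, 136 with the upper 40%, 27 with only the groups compared and 10 with the Actb covariate. Left-out arrays gave 51 to 879, 26 to 180, 518 to 854, 0 to 6, 12 to 66 and 11 to 215.

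No 2 groups had every correlation between same-numbered arrays above 0.1. Between week 48 transgenic liver and tumours all were positive, from 0.08 to 0.29, and whether these shared mice was not tested. With the replicate block Rarg at week 20 was 0.40 and called (limma adjusted p = 0.0456), the 1 of 54 receptor results whose call the block changed.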
